A study of Mus musculus with 26 samples.

Results

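The protocadherin genes were followed across 3 mouse pluripotent cell states, in their expression and in the contacts of their promoters. Members were all genes whose symbol starts with Pcdh in the RNA-seq table or among the bait names of the promoter-capture Hi-C (PCHi-C) lists, and 30 of 19166 symbols met that rule. They fell into 2 Pcdha genes, 18 Pcdhb genes, 1 Pcdhg gene and 9 non-clustered genes. Of the 30, 29 had a baited fragment in at least 1 contact list, and the exception was Pcdh11x.

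Protocadherins are cell-surface adhesion proteins of the cadherin superfamily, best known from neurons, where different combinations of clustered members give cells a surface identity. The clustered genes lie side by side as the Pcdha, Pcdhb and Pcdhg arrays. In the Pcdha and Pcdhg arrays, each variable exon has its own promoter and is spliced to shared constant exons, whereas each Pcdhb gene is a single coding exon. Promoter choice in these arrays is known to involve DNA methylation, CTCF and cohesin, and contacts with enhancers that lie toward the distal ends of the arrays.

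Wild-type ESCs (WT ESCs) were E14Tg2a cells (129P2/OlaHsd) grown on gelatin in serum with LIF. Nanog-/- ESCs were the RCNβH-B(t) line, made from E14Tg2a, grown in the same medium and kept in hygromycin during expansion to select for cells without Nanog. EpiSCs were a 129S2 line taken from embryos and grown on fibronectin in N2B27 with Activin A and bFGF, so state, strain background and medium cannot be told apart in comparisons with EpiSCs. The sample labels give C57BL/6 as the strain of all 3, which differs from the growth protocol. RNA-seq covered 3 WT ESC, 3 Nanog-/- ESC and 4 EpiSC samples, and the table gives 1 median RPKM (reads scaled to gene length and sequencing depth) per state, with unknown depth. PCHi-C was sequenced in 5 WT ESC, 2 EpiSC and 5 Nanog-/- ESC lanes, and there was 1 combined list per state. The values used here give 1 number per state without replicate error, so no test between states was made and all differences are descriptions.

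The lists held pairs of HindIII fragments with a CHiCAGO score of 5 or more, a score that weighs the reads joining a pair against those usual for its distance. They comprised 100492 different pairs in WT ESCs, compared with 87369 in EpiSCs and 74931 in Nanog-/- ESCs, resting on 2177284, 1651286 and 1438555 read pairs. The Nanog-/- ESC list was also shorter in range. The median distance over all pairs within a chromosome was 74.1 kb in that list, against 139 kb in WT ESCs and 141 kb in EpiSCs.

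Cell identity was checked on marker genes. Nanog had 418 RPKM in WT ESCs, against 361 in EpiSCs and 22.3 in Nanog-/- ESCs. In EpiSCs, all 7 naive pluripotency genes with a value were lower by at least 2-fold, with Esrrb at 210 RPKM in WT ESCs and 0.775 in EpiSCs, and 6 of 8 primed epiblast genes were higher, with Fgf5 at 4.74 and 219 RPKM. Of 6 general pluripotency genes, only Sox2 was past 2-fold in EpiSCs, at 397 RPKM in WT ESCs and 137 in EpiSCs, and only Nanog was in Nanog-/- ESCs. Relative to the EpiSC shift of 0.85 described below, Utf1 and Nanog (log2(RPKM + 1) differences of -0.76 and -0.21) were also past 2-fold lower in EpiSCs. In Nanog-/- ESCs, 2 of the 7 naive genes and 4 of the 8 primed genes were lower by 2-fold and none of either list was higher. Over all genes, 30.1% were past 2-fold higher and 5.78% lower in EpiSCs, against 1.69% and 1.35% in Nanog-/- ESCs.

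Markers of other cell types also differed between the states. All 6 fibroblast genes were past 2-fold higher in EpiSCs, their summed level being 47.8 RPKM in WT ESCs, compared with 417 in EpiSCs and 61.5 in Nanog-/- ESCs. Their most abundant gene in EpiSCs was Col1a1, at 137 RPKM, and none was listed at 0 in any state. For 7 primitive endoderm genes with a value, the summed level was 4.92 RPKM in WT ESCs and 77.2 in each of the other states, with Foxa1 the most abundant in EpiSCs (33.4 RPKM) and Gata4 in Nanog-/- ESCs (18.5 RPKM). Of these 7 genes, 5 were past 2-fold higher in EpiSCs and 6 in Nanog-/- ESCs, and 0 were lower in either. The 7 neural genes with a value summed to 91.0 RPKM in WT ESCs, against 295 in EpiSCs and 49.3 in Nanog-/- ESCs. Nes made up 271 of the EpiSC sum, while Tubb3 went the other way, with 77.1, 18.1 and 34.8 RPKM in WT ESCs, EpiSCs and Nanog-/- ESCs. Of the 7 neural genes, 2 were past 2-fold higher and 1 lower in EpiSCs, and 0 higher and 1 lower in Nanog-/- ESCs. Trophoblast genes (4 with a value) summed to 2.91, 6.01 and 7.96 RPKM in WT ESCs, EpiSCs and Nanog-/- ESCs, with 1 gene past 2-fold higher in EpiSCs (Krt7) and 1 in Nanog-/- ESCs (Hand1). Mesoderm genes (4 with a value) summed to 1.19, 4.41 and 1.72 RPKM, with Msgn1 past 2-fold higher in EpiSCs. Beside these marker counts, 30.1% of all genes were past 2-fold higher and 5.78% lower in EpiSCs. In Nanog-/- ESCs the shares were 1.69% and 1.35%. In bulk RNA, fewer cells of a type and less RNA per cell cannot be told apart, and the part of these cell types in the protocadherin values was not tested.

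Protocadherin genes were expressed at low levels in WT ESCs and at higher levels in EpiSCs. Between WT ESCs and EpiSCs, 17 of the 30 genes differed by at least 1 in log2(RPKM + 1), that is 2-fold on that scale, and all 17 were higher in EpiSCs. Of all 15646 genes with a value, 30.1% (4702) were past 2-fold higher and 5.78% (904) lower in the same comparison. RPKMs were shifted upward in EpiSCs, by a median of 0.85 in log2(RPKM + 1) over 9077 genes with at least 1 RPKM in both states and of 0.46 over all genes. Relative to the shift of 0.85, 12 of the 30 protocadherin genes were past 2-fold higher and 0 lower, beside 9.86% (1543) higher and 14.6% (2283) lower over all genes. Since 1 is added to each RPKM, a gene near 0 RPKM in WT ESCs can lie below that shift and still differ many-fold. The number of protocadherin genes at 1 RPKM or more was 2 in WT ESCs, compared with 17 in EpiSCs and 4 in Nanog-/- ESCs. With a pseudocount of 0.1 in place of 1, which gives weight to low values, 27 of the 30 genes were past 2-fold higher in EpiSCs, beside 5948 of all 15646 genes.

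The difference between WT ESCs and Nanog-/- ESCs was small in log2(RPKM + 1), a scale that adds 1 to values mostly below 1 RPKM. Summed over the 30 genes, RPKM was 9.26 in WT ESCs and 18.5 in Nanog-/- ESCs, beside 519857 and 525656 over all genes. Pcdh7 alone was past 2-fold higher and 0 genes were past 2-fold lower, where 1.69% of all genes were higher and 1.35% lower. The median difference over the 30 genes was 0.06 in log2(RPKM + 1), beside 0.01 over all 15646 genes and 0.06 over the 9496 genes with at least 1 RPKM in both states. A higher value in Nanog-/- ESCs was listed for 26 of the 30 and for 8030 of all genes. The count past 2-fold depended on the pseudocount, since 7 genes were past 2-fold higher with a pseudocount of 0.1, beside 884 of all 15646 genes. With a pseudocount of 1, 3 were past 1.5-fold higher, beside 980 of all genes. Both comparisons use the same WT ESC values.

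**Figure D1:**
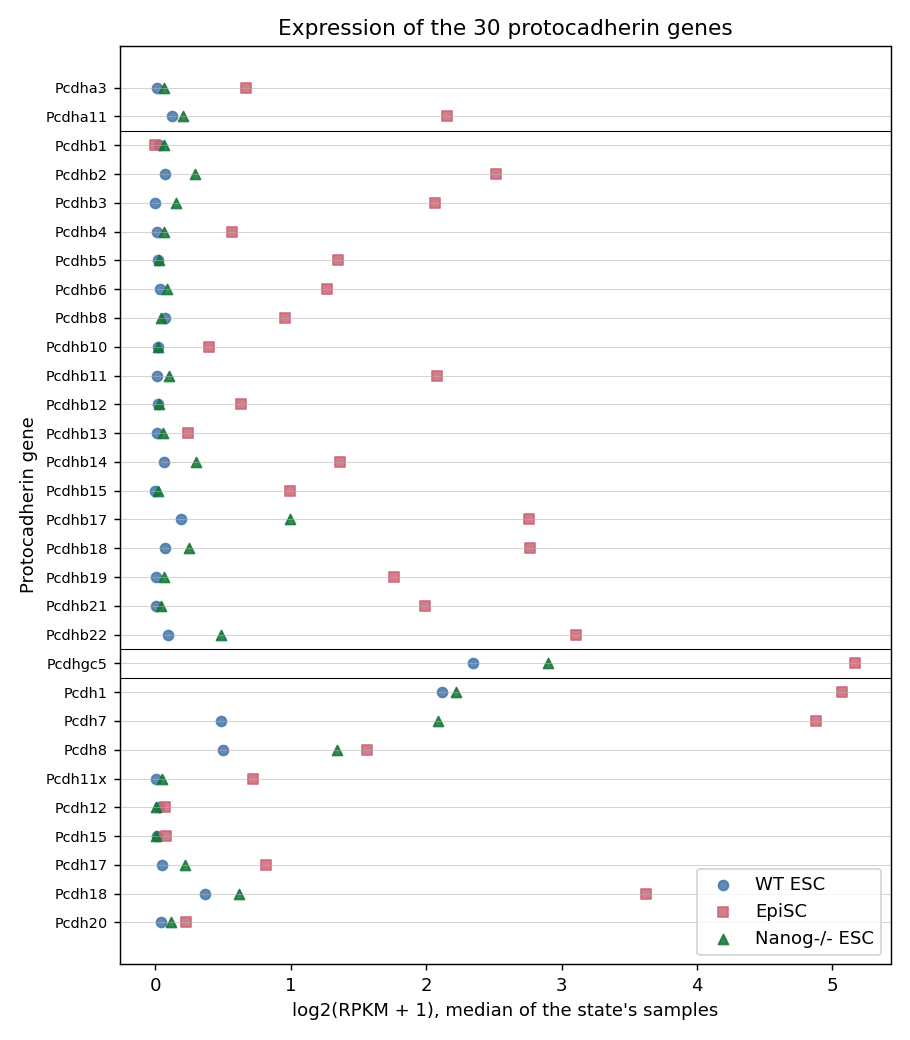
Expression of the 30 protocadherin genes as log2(RPKM + 1) of the median RPKM in WT ESCs (circles), EpiSCs (squares) and Nanog-/- ESCs (triangles), with lines dividing the Pcdha, Pcdhb, Pcdhg and non-clustered groups. Pcdhgc5 and Pcdh1 were above 1 RPKM in all 3 states, and EpiSC values lay furthest right for all genes but Pcdhb1.

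The 18 Pcdhb genes were all under 1 RPKM in both ESC lines. Their median was 0.0137 RPKM in WT ESCs, 0.0445 in Nanog-/- ESCs and 1.56 in EpiSCs. There 11 of the 18 reached 1 RPKM and the same 11 were past 2-fold higher, beside 30.1% of all genes. Summed over the 18 genes, Pcdhb RPKM was 0.535 in WT ESCs, 2.58 in Nanog-/- ESCs and 43.7 in EpiSCs. The GENCODE M21 annotation lists 22 Pcdhb genes, so these values do not cover the whole array. Relative to the EpiSC shift of 0.85, 7 of the 18 were past 2-fold higher, beside 9.86% of all genes. Some low genes fell short of that mark despite large ratios, such as Pcdhb4 at 43.2 times and Pcdhb12 at 40.8 times their WT ESC values.

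The highest EpiSC levels were found at the distal end of the Pcdhb array. Pcdhb22, the last gene of the array, had 0.0661 RPKM in WT ESCs, 0.400 in Nanog-/- ESCs and 7.63 in EpiSCs. Pcdhb18 had 0.0506, 0.186 and 5.82 RPKM in the same order of states, and Pcdhb17 had 0.143, 0.993 and 5.77 RPKM. These 3 genes lie close together, yet Pcdhb19 and Pcdhb21, which lie among them, had lower EpiSC levels. Pcdhb19 had 0.00577 RPKM in WT ESCs, 0.0433 in Nanog-/- ESCs and 2.39 in EpiSCs, and Pcdhb21 had 0.00578, 0.0291 and 2.97 RPKM.

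Genes nearer the proximal end were more uneven. Pcdhb2 had 0.0531 RPKM in WT ESCs, 0.227 in Nanog-/- ESCs and 4.73 in EpiSCs, and Pcdhb3 was listed at 0 in WT ESCs, with 0.110 RPKM in Nanog-/- ESCs and 3.19 in EpiSCs. Pcdhb11, in the middle of the array, had 0.0109, 0.0739 and 3.23 RPKM. Pcdhb1, the first gene of the array, was the only Pcdhb gene listed at 0 in EpiSCs, with 0.0167 RPKM in WT ESCs and 0.0437 in Nanog-/- ESCs.
The remaining genes past 2-fold in EpiSCs had modest levels. Pcdhb14 had 0.0470 RPKM in WT ESCs, 0.233 in Nanog-/- ESCs and 1.57 in EpiSCs. Pcdhb5 had 0.0116, 0.0211 and 1.55 RPKM in that order, and Pcdhb6 had 0.0242, 0.0592 and 1.41 RPKM. The 6 other Pcdhb genes (Pcdhb4, Pcdhb8, Pcdhb10, Pcdhb12, Pcdhb13 and Pcdhb15) lay between 0.184 and 0.990 RPKM in EpiSCs, short of the 2-fold rule.

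The Pcdha and Pcdhg arrays entered the RNA-seq table under few names. Pcdha11 had 0.0895 RPKM in WT ESCs, 0.152 in Nanog-/- ESCs and 3.45 in EpiSCs, and Pcdha3 had 0.0111, 0.0440 and 0.594 RPKM. Pcdhgc5 was the most abundant clustered gene in all 3 states, at 4.08 RPKM in WT ESCs, 6.46 in Nanog-/- ESCs and 35.0 in EpiSCs. The baited fragment named Pcdha11 covers the start of Pcdha1 in the GENCODE M21 annotation, and the one named Pcdhgc5 covers the start of Pcdhga3. Members of these arrays share constant exons, and how reads over those exons were counted is not given in the sources used here, so the values under these names may include other members of their arrays.

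The 9 non-clustered genes include members of the delta-protocadherins, which act in cell sorting and axon growth. Pcdh1, an adhesion protein of epithelia, was the most abundant of the 9 in all 3 states, at 3.34 RPKM in WT ESCs, 3.66 in Nanog-/- ESCs and 32.6 in EpiSCs. Pcdh7 had the largest difference of the 30 genes, with 0.399 RPKM in WT ESCs, 3.24 in Nanog-/- ESCs and 28.4 in EpiSCs, which is a log2(RPKM + 1) difference of 4.39 for EpiSCs and 1.60 for Nanog-/- ESCs. Pcdh18 had 0.292, 0.538 and 11.3 RPKM in the same order. Pcdh8, also known as paraxial protocadherin and linked to cell movement in the gastrulating embryo, had 0.417 RPKM in WT ESCs, 1.53 in Nanog-/- ESCs and 1.96 in EpiSCs. These 4 were the non-clustered genes past 2-fold higher in EpiSCs, beside 30.1% of all genes. Relative to the shift of 0.85, 3 of them stayed so, beside 9.86% of all genes. The median difference of the 9 genes relative to that shift was -0.09, and 4 of the 9 lay above it. Among the 9, the lowest value was that of Pcdh11x in WT ESCs (0.00297 RPKM), of Pcdh15 in Nanog-/- ESCs (0.00300 RPKM) and of Pcdh12 in EpiSCs (0.0495 RPKM). The other EpiSC values were 0.648 RPKM for Pcdh11x, 0.0557 for Pcdh15, 0.759 for Pcdh17 and 0.171 for Pcdh20.

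Promoters of 3 of the non-clustered genes, Pcdh7, Pcdh17 and Pcdh18, had contacts in the EpiSC list alone. Their sequences (RefSeq, GRCm38.p6, from 250 bases before to 50 bases after the gene start) are shown with that of Pcdh8, whose promoter had contacts in all 3 lists. Each lies inside the baited fragment of its gene and is printed along the gene's own strand. Capitals mark matches to the GC box GGGCGG or the TATA box TATAAA on either strand.
Pcdh7, chr5:57717831-57718130, plus strand: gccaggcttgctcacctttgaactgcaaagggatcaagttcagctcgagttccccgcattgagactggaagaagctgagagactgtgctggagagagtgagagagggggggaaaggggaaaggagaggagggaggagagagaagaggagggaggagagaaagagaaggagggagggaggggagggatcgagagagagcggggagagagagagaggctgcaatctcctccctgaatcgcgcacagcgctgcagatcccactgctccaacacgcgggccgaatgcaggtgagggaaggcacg
Pcdh17, chr14:84443313-84443612, plus strand: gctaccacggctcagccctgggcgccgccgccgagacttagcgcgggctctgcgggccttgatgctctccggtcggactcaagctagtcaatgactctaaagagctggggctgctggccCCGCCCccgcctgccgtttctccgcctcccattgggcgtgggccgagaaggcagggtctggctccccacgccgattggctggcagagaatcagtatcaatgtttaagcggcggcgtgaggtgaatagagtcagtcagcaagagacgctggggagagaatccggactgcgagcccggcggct
Pcdh18, chr3:49757267-49757566, minus strand: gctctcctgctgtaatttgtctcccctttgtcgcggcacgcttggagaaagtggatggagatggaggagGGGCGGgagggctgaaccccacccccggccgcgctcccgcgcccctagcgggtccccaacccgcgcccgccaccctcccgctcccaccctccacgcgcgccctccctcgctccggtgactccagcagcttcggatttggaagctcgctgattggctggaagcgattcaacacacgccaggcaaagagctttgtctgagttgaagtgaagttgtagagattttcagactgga
Pcdh8, chr14:79771263-79771562, minus strand: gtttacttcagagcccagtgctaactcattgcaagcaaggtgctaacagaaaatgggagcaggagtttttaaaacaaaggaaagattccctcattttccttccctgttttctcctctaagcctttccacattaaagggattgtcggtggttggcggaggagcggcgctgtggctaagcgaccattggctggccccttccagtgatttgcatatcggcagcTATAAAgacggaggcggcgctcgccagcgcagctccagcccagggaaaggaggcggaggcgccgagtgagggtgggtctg
Of all 32851 promoters of this length, 35.7% held a GC box and 13.6% a TATA box. Pcdh17 and Pcdh18 each held 1 GC box, Pcdh8 held 1 TATA box, and Pcdh7 held neither set of letters. CpG dinucleotides numbered 11 in Pcdh7, 26 in Pcdh17, 23 in Pcdh18 and 14 in Pcdh8, above the median of 7 over all promoters in each case.

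Contacts of these promoters were few and rested on few reads. Pcdh7 had 0 pairs in WT ESCs and Nanog-/- ESCs and 4 in EpiSCs, carrying 19 reads in all. The pair with the highest score (7.77, 6 reads) joined the promoter to a fragment 319 kb off in an intron of Pcdh7, and another pair (score 5.35, 4 reads) reached a fragment 432 kb away between protein-coding genes. Pcdh17 had 1 pair in EpiSCs, with 10 reads and a score of 8.90, to a fragment 239 kb away between protein-coding genes. Pcdh18 had 2 pairs in EpiSCs, with 8 reads each and scores of 7.29 and 6.98, to 2 fragments in introns of Slc7a11, a cystine transporter gene, 316 and 304 kb away. The EpiSC list holds the only contacts of these promoters, and whether the absence of a pair from the other lists reflects depth was not tested.

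Pcdh8 had 8 pairs in WT ESCs, against 9 in EpiSCs and 4 in Nanog-/- ESCs. Its strongest EpiSC contact, with 24 reads and a score of 21.64, joined the promoter to chr14:79912269-79912861, 141 kb away between protein-coding genes. The same pair had 18 reads and a score of 11.73 in WT ESCs and 8 reads and a score of 5.87 in Nanog-/- ESCs, and it was the only Pcdh8 pair in all 3 lists. A more distant fragment, chr14:80213782-80216588 at 444 kb, was the highest-scoring partner in WT ESCs (12.45, 11 reads) and in Nanog-/- ESCs (8.83, 7 reads), and was not in the EpiSC list.

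The partner fragments of these promoters in EpiSCs with at most 300 bases are shown whole, on the plus strand of GRCm38, as the distal ends of the contacts. Capitals mark the bases of the HindIII site left at each end.
Partner of Pcdh7 in its intron, chr5:58037968-58038120: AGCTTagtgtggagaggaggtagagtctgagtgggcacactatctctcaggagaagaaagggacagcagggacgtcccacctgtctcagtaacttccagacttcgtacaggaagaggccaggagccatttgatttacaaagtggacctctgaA
Partner of Pcdh7 between genes, chr5:58151667-58151820: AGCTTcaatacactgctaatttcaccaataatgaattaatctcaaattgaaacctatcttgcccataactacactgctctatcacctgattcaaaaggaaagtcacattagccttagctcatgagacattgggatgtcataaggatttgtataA
Partner of Pcdh17, chr14:84683555-84683706: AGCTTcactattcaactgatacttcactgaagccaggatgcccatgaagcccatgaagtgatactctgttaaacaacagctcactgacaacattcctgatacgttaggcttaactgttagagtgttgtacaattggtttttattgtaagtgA
Partner of Pcdh8 between genes, chr14:80169352-80169566: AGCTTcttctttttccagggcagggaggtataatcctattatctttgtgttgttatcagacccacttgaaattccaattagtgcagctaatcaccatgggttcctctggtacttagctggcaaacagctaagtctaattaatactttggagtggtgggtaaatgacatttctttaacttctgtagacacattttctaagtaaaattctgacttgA
Their GC content was 51.0%, 35.1%, 39.5% and 37.7% in that order, and they held 2, 0, 1 and 0 CpG dinucleotides. The Pcdh8 partner was 398 kb from its promoter, with 6 reads and a score of 6.69.

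Pcdh15 and Pcdh20 had few contacts, all of them long. Pcdh15, a hair cell tip-link protein, had 2 pairs in WT ESCs, to introns of its own gene 308 and 332 kb away, and 0 in the other lists. Pcdh20 had 1 pair in WT ESCs (5 reads, score 6.60) and 1 in EpiSCs (4 reads, score 5.86), to neighbouring fragments of the Tdrd3 gene, chr14:87468232-87473054 and chr14:87464820-87468231. At 1000 and 1004 kb these were the only pairs of a protocadherin bait longer than 800 kb. No protocadherin bait had a pair with another chromosome in any list, where 786, 388 and 346 such pairs were listed in all.

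The 3 arrays lie on chromosome 18. On GRCm38 with GENCODE M21, the Pcdha array spans chr18:36930184-37187661, the Pcdhb array chr18:37264938-37524479 and the Pcdhg array chr18:37661793-37841873, a locus of 912 kb in all. Intervals of 77.3 kb and 137 kb separate the arrays. There were 2 baited fragments in the Pcdha array with a protocadherin name, 18 in the Pcdhb array and 1 in the Pcdhg array, so contacts within and among the Pcdha and Pcdhg arrays could be seen from few promoters. The Pcdhb6 bait also covers the start of Pcdhb7, and the Pcdhb15 bait that of Pcdhb16. Contacts under these 2 names may belong to either gene.

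Pairs with a protocadherin bait numbered 354 in WT ESCs, compared with 269 in EpiSCs and 143 in Nanog-/- ESCs. They made up 0.352% of the WT ESC list (95% exact interval 0.317 to 0.391), 0.308% of the EpiSC list (0.272 to 0.347) and 0.191% of the Nanog-/- ESC list (0.161 to 0.225). All such intervals are Clopper-Pearson and cover counting error only. The decrease from WT ESCs to Nanog-/- ESCs thus exceeded that of the list itself, and all pairs with an end on chromosome 18 numbered 2488, 2327 and 1471.

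Clustered promoters were rich in contacts. Pcdhb baits had a median of 17.5 pairs in WT ESCs, against 8.50 in EpiSCs and 5.50 in Nanog-/- ESCs, beside medians of 3, 3 and 2 over all 19022 baited fragments. In EpiSCs, 20 of the 29 protocadherin baits had fewer pairs than in WT ESCs and 6 had more, where 53.7% of all baited fragments with a pair in either list had fewer. By group, 2 of 2 Pcdha and 16 of 18 Pcdhb baits had fewer, whereas 5 of 8 non-clustered baits had more and 2 had fewer. Of those with more, 3 had 0 pairs in WT ESCs and could not have fewer, and the difference between groups was not tested. In Nanog-/- ESCs, all 26 protocadherin baits with a pair in either list had fewer, where 64.6% of all baited fragments did. The 2 Pcdha baits, the 18 Pcdhb baits and the Pcdhg bait were all among those 26.

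The baits with most pairs changed between lists. In WT ESCs these were Pcdha11 and Pcdhb1 with 37 pairs each, Pcdh1 with 35, Pcdhb19 with 34 and Pcdhb18 with 30. In EpiSCs they were Pcdh1 with 44, Pcdhb19 with 32, Pcdhb18 with 27, Pcdhb21 with 25 and Pcdhb14 with 19. In Nanog-/- ESCs they were Pcdh1 with 33, Pcdhb19 with 16, Pcdhb1 with 15, Pcdhb3 with 14 and Pcdhb13 with 12. Pcdh1 and Pcdhb19 were thus in the leading 5 of every list, while Pcdha11 fell from 37 pairs to 9 in EpiSCs and 11 in Nanog-/- ESCs. The 4 most distal Pcdhb baits, from Pcdhb18 to Pcdhb22, came within 3 pairs of their WT ESC numbers in EpiSCs, as did baits with fewer pairs elsewhere in the array (Pcdhb5, Pcdhb6, Pcdhb10 and Pcdhb11). Pcdhb3 had 25 pairs in WT ESCs and 7 in EpiSCs.

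**Figure D2:**
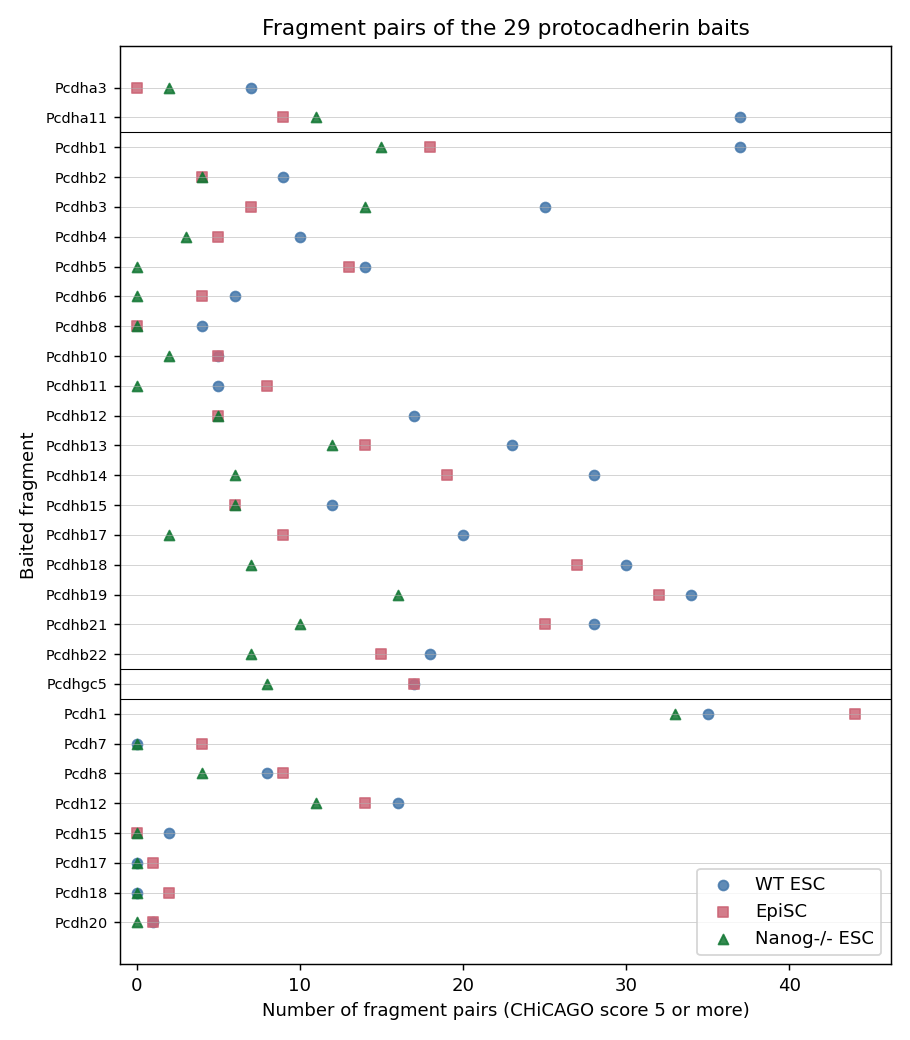
Number of fragment pairs of each of the 29 protocadherin baits in the WT ESC (circles), EpiSC (squares) and Nanog-/- ESC (triangles) lists, in the order of the arrays. Nanog-/- ESC counts lay below WT ESC counts for the 26 baits with a pair in either list, and EpiSC counts ranged from 0 to 44.

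Of pairs with an end in an array, whichever the bait, 324 were listed in WT ESCs, compared with 215 in EpiSCs and 106 in Nanog-/- ESCs. Pairs within 1 array numbered 109, 55 and 45 in that order. Pairs between arrays numbered 152, 66 and 36, and pairs from an array to sequence outside all 3 numbered 63, 94 and 25. The outside class was therefore the only one with more pairs in EpiSCs than in WT ESCs. That direction depended on the settings, since outside pairs numbered 26 in WT ESCs and 27 in EpiSCs at 10 reads or more, and it turned to 11 and 6 with 50 kb added to each side of the arrays and to 185 and 141 with spans drawn from the baited fragments alone. Its share was 19.4% in WT ESCs (15.3 to 24.2), against 43.7% in EpiSCs (37.0 to 50.6) and 23.6% in Nanog-/- ESCs (15.9 to 32.8), while the share between arrays was 46.9% (41.4 to 52.5), 30.7% (24.6 to 37.3) and 34.0% (25.0 to 43.8).

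**Figure D3:**
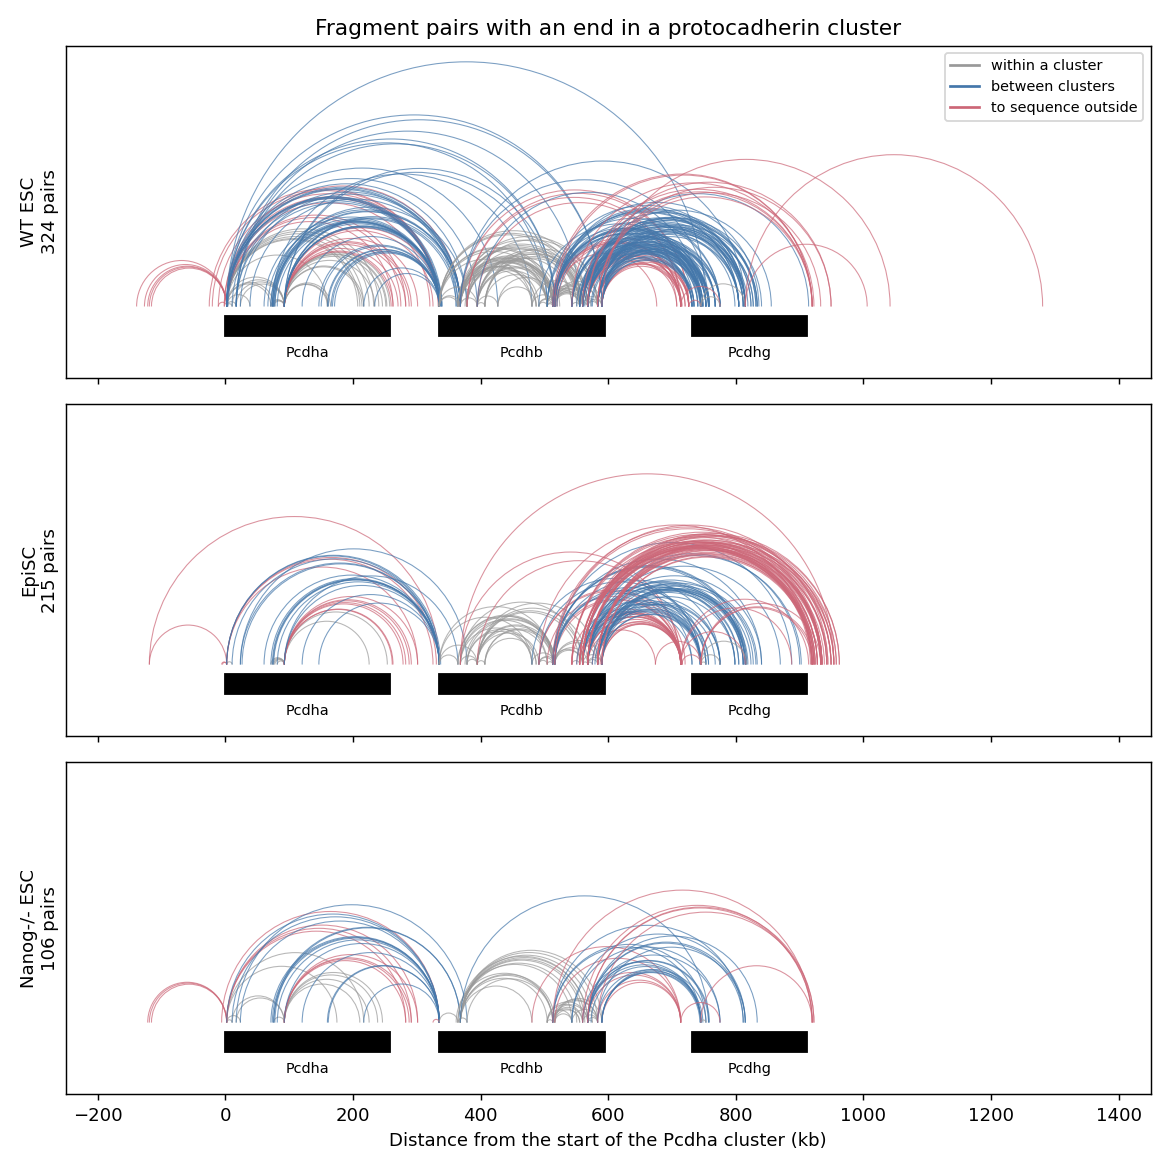
Each arc joins the midpoints of a fragment pair with an end in a protocadherin array, by distance in kb from the start of the Pcdha array, in the 3 lists (324, 215 and 106 pairs). Black boxes are the arrays, and colours give pairs within an array, between arrays and to sequence outside. In EpiSCs, red arcs from the Pcdhb array converged just past the end of the Pcdhg array.

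Contacts within arrays were mostly those of Pcdhb, the array with 18 protocadherin baits against 2 in Pcdha and 1 in Pcdhg. The numbers of pairs are therefore not comparable between arrays. There were 78 pairs within Pcdhb in WT ESCs, compared with 44 in EpiSCs and 33 in Nanog-/- ESCs, against 29, 8 and 11 within Pcdha and 2, 3 and 1 within Pcdhg. Between arrays, Pcdhb and Pcdhg were joined by 98, 50 and 21 pairs, and Pcdha and Pcdhb by 53, 16 and 15. Pcdha and Pcdhg, the outer arrays, were joined by 1 pair in WT ESCs and 0 in the other lists. The fall in pairs joining Pcdha to Pcdhb, from 53 to 16 in EpiSCs, was steeper than that of the list as a whole. Of these pairs, 23 in WT ESCs and 13 in EpiSCs had the Pcdhb1 bait at 1 end.

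Many pairs joined protocadherin promoters to each other. Pairs of 2 baits can be listed from either end, and no share of such pairs over all baits is given here. Of 210 possible pairs among the 21 clustered baits, 94 were listed in WT ESCs, against 47 in EpiSCs and 35 in Nanog-/- ESCs. Of those in WT ESCs, 70 joined Pcdhb promoters, 14 Pcdha to Pcdhb promoters and 9 Pcdhb promoters to the Pcdhgc5 bait. The number joining Pcdha to Pcdhb promoters was 1 in EpiSCs and 2 in Nanog-/- ESCs. Across all protocadherin baits, 14 promoter pairs were in all 3 lists.

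The highest scores within arrays in WT ESCs began with Pcdha11 and Pcdha3 (48 reads, score 26.26, 14.9 kb). Pcdhb5 entered the next 3, with Pcdhb14 (11 reads, 16.12, 121 kb), with Pcdhb3 (21 reads, 14.67, 26.6 kb) and with Pcdhb19 (9 reads, 14.53, 173 kb). The fifth was Pcdhb14 with Pcdhb19 (41 reads, 13.40, 51.7 kb). In EpiSCs, all 5 of the highest scores within arrays had Pcdhb5 at 1 end. They were with Pcdhb14 (11 reads, 20.63), Pcdhb13 (10 reads, 18.23), Pcdhb3 (19 reads, 17.69), Pcdhb4 (18 reads, 11.57) and Pcdhb18 (6 reads, 11.45).
Pcdhb5 had 13 pairs in EpiSCs and 14 in WT ESCs but 0 in Nanog-/- ESCs. There the highest scores within arrays were those of Pcdhb1 with Pcdhb2 (20 reads, 19.58), Pcdhb12 with Pcdhb13 (34 reads, 8.57), Pcdhb15 with Pcdhb21 (13 reads, 8.52), Pcdhb13 with Pcdhb19 (14 reads, 8.41) and Pcdhb14 with Pcdhb22 (8 reads, 8.37).

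Between arrays, the highest scores in WT ESCs joined distal Pcdhb promoters to the Pcdhg array. Pcdhb21 and the Pcdhgc5 bait had 24 reads and a score of 22.78 at 162 kb. Pcdhb19 joined a fragment holding an exon of Pcdhgb6, chr18:37743425-37746548, with 22 reads and a score of 20.54 at 247 kb, and the Pcdhgc5 bait with 29 reads and a score of 19.98 at 177 kb. The other 2 joined Pcdha3 to Pcdhb1 (9 reads, 18.27) and the bait named Gm10545, at Pcdha12, to a fragment beside the Pcdhb1 bait (18 reads, 17.82).
In Nanog-/- ESCs the leading 5 all joined distal Pcdhb promoters to the Pcdhg array. Pcdhb19 with the Pcdhgc5 bait came first (15 reads, 16.25), then Pcdhb18 with the Pcdhgc5 bait (10 reads, 12.42), Pcdhb19 with the Pcdhgb6 fragment (10 reads, 12.41), Pcdhb21 with the Pcdhgc5 bait (9 reads, 11.54) and Pcdhb19 with chr18:37740109-37743424 (9 reads, 10.14). In EpiSCs, Pcdha11 with Pcdhb1 came first (13 reads, 13.99, 333 kb). Pcdhb22 with the Pcdhgb6 fragment (8 reads, 12.50), Pcdhb14 with an exon of Pcdhga6 (8 reads, 12.48), Pcdhb22 with the Pcdhgc5 bait (10 reads, 12.30) and Pcdhb19 with the same Pcdhga6 fragment (8 reads, 11.17) followed.

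The contacts of Pcdhb promoters were then placed along the locus, counting each pair once from each Pcdhb bait in it. Downstream of the Pcdhg array, Pcdhb baits had 10 contacts in WT ESCs, compared with 49 in EpiSCs and 5 in Nanog-/- ESCs. These made up 3.08% of 325 contacts in WT ESCs (1.49 to 5.59), 22.7% of 216 in EpiSCs (17.3 to 28.9) and 4.59% of 109 in Nanog-/- ESCs (1.51 to 10.4). Pairs of 2 Pcdhb baits count from both ends, so contacts exceed the 255, 176 and 81 different pairs. The intervals treat contacts as separate, and the downstream shares would be higher over different pairs. Contacts with the Pcdhg array itself went the other way, at 93, 47 and 20, as did those with the Pcdha array at 46, 15 and 15. Of those with the Pcdha array, 23, 13 and 12 were contacts of a single bait, Pcdhb1, at the proximal edge of its array. In the interval between Pcdhb and Pcdhg there were 23, 20 and 6. This division of the locus was made after the contacts had been seen.

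**Figure D4:**
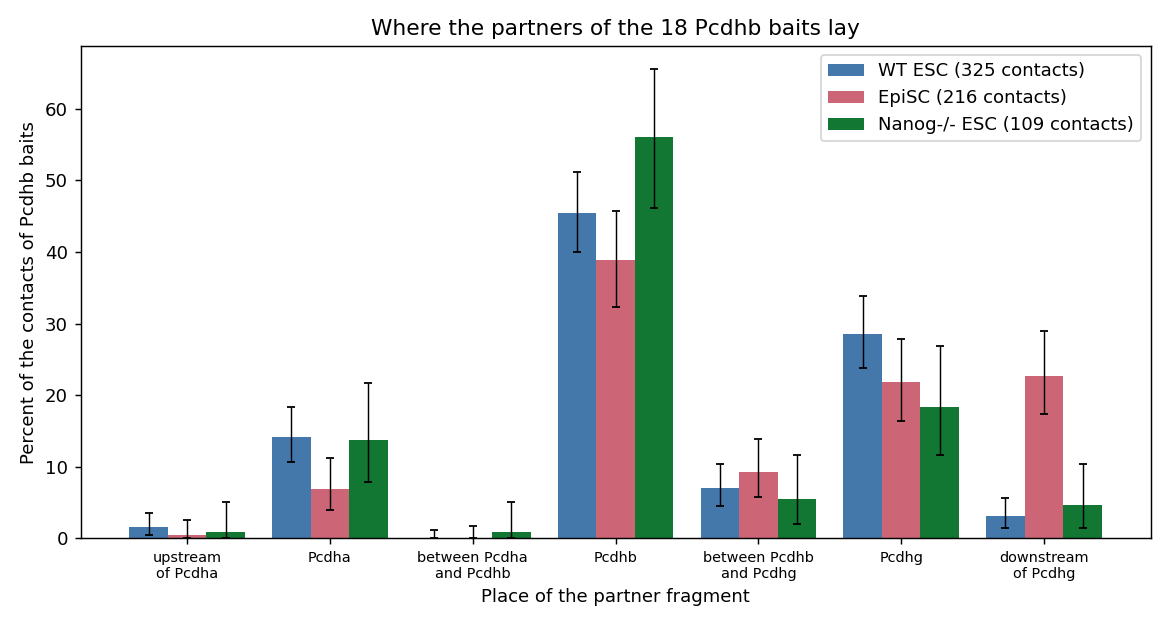
Percent of the contacts of the 18 Pcdhb baits whose partner lay in each part of the locus, for WT ESCs (325 contacts), EpiSCs (216) and Nanog-/- ESCs (109), with 95% exact intervals as error bars that cover counting error only. Downstream of Pcdhg the EpiSC share was 22.7%, against 3.08% in WT ESCs and 4.59% in Nanog-/- ESCs.

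All but 1 of the downstream contacts lay in Diaph1, a formin gene transcribed toward the Pcdhg array and ending 1.73 kb past it. The exception was a WT ESC pair with the Fchsd1 bait (5 reads, score 5.74). In EpiSCs, 15 different fragments of Diaph1 were contacted, 47 of the 49 contacts lay within 50 kb of the end of the Pcdhg array, and the median distance to the Pcdhb bait was 370 kb. WT ESC contacts reached 5 different fragments and those of Nanog-/- ESCs reached 2.
The fragment chr18:37849044-37850776, in an intron of Diaph1, was contacted by 5 Pcdhb baits in WT ESCs, against 7 in EpiSCs and 3 in Nanog-/- ESCs, and was the leading one in each list. Farther in, chr18:37865202-37865374 was contacted by 6 Pcdhb baits in EpiSCs and by 0 in the other lists, and its neighbour chr18:37861221-37865201 by 5 in EpiSCs, 1 in WT ESCs and 0 in Nanog-/- ESCs. The highest score, 20.33 with 14 reads at 373 kb, joined that neighbour to Pcdhb18.

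Most of the downstream contacts came from the distal Pcdhb genes. Pcdhb18 had 13 in EpiSCs and 1 in WT ESCs, Pcdhb21 had 11 and 3, and Pcdhb19 had 9 and 2. Pcdhb17 had 5 in EpiSCs and 0 in WT ESCs, and Pcdhb15 had 4 and 1. Farther from the distal end, Pcdhb14 had 2 in EpiSCs and Pcdhb3, Pcdhb11 and Pcdhb13 had 1 each. In all, 10 of the 18 Pcdhb baits had such a contact in EpiSCs, 7 in WT ESCs and 4 in Nanog-/- ESCs. Pcdhb22, the gene with the highest EpiSC level of the 18, had 2 in EpiSCs and 1 in WT ESCs. The Pcdhgc5 bait had 3 downstream contacts in EpiSCs, 0 in WT ESCs and 1 in Nanog-/- ESCs, and the Pcdha baits had 0 in each list. Of the 49 EpiSC contacts, 6 were also in the WT ESC list.

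**Figure D5:**
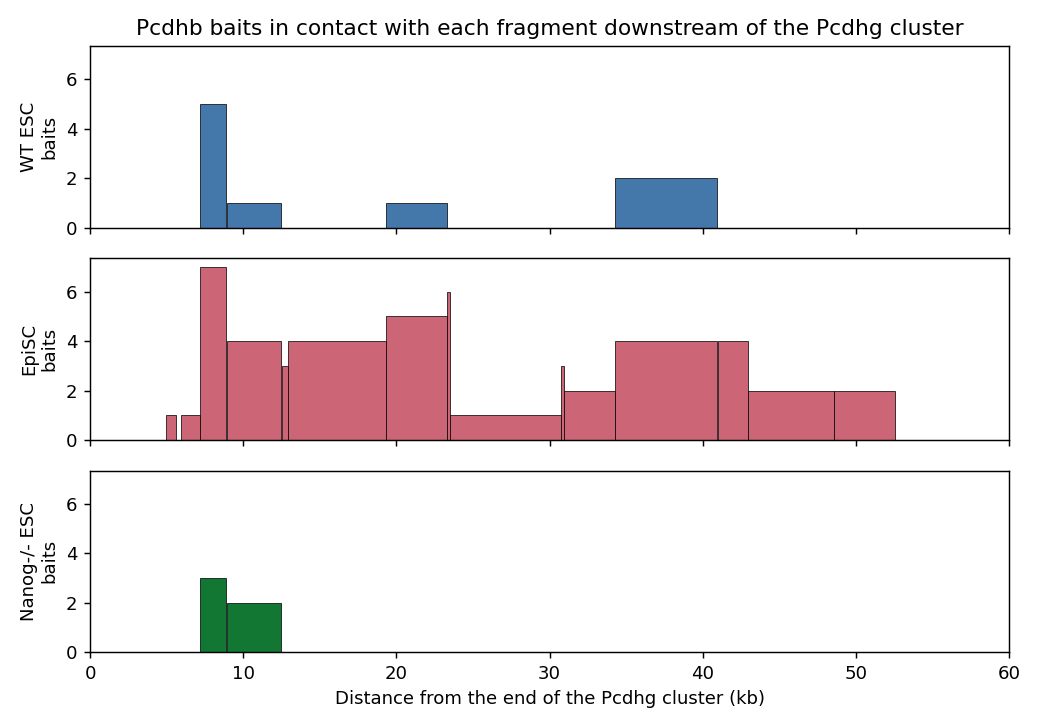
Number of Pcdhb baits in contact with each HindIII fragment downstream of the Pcdhg array, by distance from its end (bar width is fragment length), within 60 kb. The fragment from 7.17 to 8.90 kb was contacted in all 3 lists (5, 7 and 3 baits), whereas those from 41.01 to 52.55 kb were contacted in EpiSCs alone.

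Reads behind the downstream contacts were few, at 316 in EpiSCs, 65 in WT ESCs and 22 in Nanog-/- ESCs over all of them. At a CHiCAGO score of 7 or more, 29 remained in EpiSCs, 4 in WT ESCs and 0 in Nanog-/- ESCs, and at 10 reads or more 4, 1 and 0 did. Over the whole EpiSC list, pairs of 250 to 500 kb made up 20.4% of those within a chromosome, against 20.6% in WT ESCs and 11.2% in Nanog-/- ESCs. For pairs of clustered protocadherin baits the share was 42.6% in EpiSCs (35.5 to 49.8), 28.8% in WT ESCs (23.6 to 34.3) and 24.2% in Nanog-/- ESCs (16.0 to 34.1). The counts behind these shares were 83 of 195, 84 of 292 and 23 of 95. Downstream contacts, at a median of 370 kb in EpiSCs, fell largely in this range, so the EpiSC share is not separate from them.

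Partner fragments shared by many clustered baits were mostly protocadherin promoters themselves. Those are baited fragments, whose pairs with other baits can be listed from either end, and the part of this in the counts was not tested. In WT ESCs the Pcdhb14 bait was contacted by 15 other clustered baits, Pcdhb12 by 14 and Pcdhb5 and Pcdhb13 by 13 each. In EpiSCs the leading fragments were Pcdhb5 with 12, and Pcdhb14 and the Taf7 bait with 11 each. Taf7, which encodes a TFIID subunit, lies between Pcdhb and Pcdhg and was contacted by 8 clustered baits in WT ESCs and 6 in Nanog-/- ESCs. The Pcdha11 bait was contacted by 10 clustered baits in WT ESCs and 1 in each of the other lists. The bait named 3222401L13Rik, also between Pcdhb and Pcdhg, was contacted by 9 in WT ESCs and 0 in the others.

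Genes around the arrays differed in how far they followed the protocadherins. Taf7 had 99.3 RPKM in WT ESCs, compared with 113 in EpiSCs and 98.7 in Nanog-/- ESCs. Diaph1, listed under its older symbol Diap1, had 91.5, 78.4 and 73.3 RPKM. Slc25a2 had 0.261, 1.20 and 0.132 RPKM, and 3222401L13Rik had 1.34, 0.582 and 2.53 RPKM. Past the arrays, levels were higher in EpiSCs for Hdac3 (39.4, 91.0 and 33.5 RPKM), Arap3 (3.75, 31.3 and 4.20 RPKM) and Rnf14 (32.0, 95.7 and 41.5 RPKM), while Fchsd1 had 4.06, 4.50 and 5.34 RPKM. Over genes with at least 1 RPKM in both states, the median ratio of EpiSC to WT ESC values was 1.89.

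Pcdh1 and Pcdh12 lie farther along chromosome 18, downstream of the arrays. Pcdh1 had 35 pairs in WT ESCs, against 44 in EpiSCs and 33 in Nanog-/- ESCs, and 23 were in all 3 lists. Its highest-scoring partner in both ESC lines was chr18:38021834-38027937, between protein-coding genes at 186 kb, which had 31 reads and scored 18.72 in WT ESCs and 16 reads and 15.97 in Nanog-/- ESCs. In EpiSCs the adjacent fragment chr18:38027938-38028143 led, with 26 reads and a score of 22.08.
Pcdh12, an endothelial adhesion protein with 16, 14 and 11 pairs, shared 9 partner fragments with Pcdh1 in WT ESCs, compared with 12 in EpiSCs and 5 in Nanog-/- ESCs. The promoters of Pcdh1 and Pcdh12 were joined to each other in EpiSCs alone (18 reads, score 6.73, 72.8 kb). In WT ESCs, Pcdh1 also joined the Pcdhgb6 fragment of the Pcdhg array, at a distance of 466 kb (13 reads, score 11.76), the only pair between a non-clustered promoter and an array.

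Of the 354 WT ESC pairs with a protocadherin bait, 133 were also in the EpiSC list, a share of 37.6% (32.5 to 42.8), beside 39.6% of all WT ESC pairs. In the Nanog-/- ESC list 97 were found, a share of 27.4% (22.8 to 32.4), beside 41.8% of all pairs. The difference from all pairs was not tested, and the pairs were unlike in distance, since 39.2% of all WT ESC pairs but 16.1% of those of clustered protocadherin baits (12.1 to 20.8) spanned under 100 kb. Over all pairs, those under 100 kb numbered 39131 in WT ESCs and 43463 in Nanog-/- ESCs, and those of 250 to 500 kb 20527 and 8339. By group, the share kept for non-clustered baits was 61.3% in EpiSCs (48.1 to 73.4) and 51.6% in Nanog-/- ESCs (38.6 to 64.5). For the Pcdhg bait it was 47.1% (23.0 to 72.2) and 35.3% (14.2 to 61.7), and for Pcdhb baits 34.9% (29.1 to 41.1) and 22.4% (17.4 to 28.0). For Pcdha baits it was 9.30% (2.59 to 22.1) and 18.6% (8.39 to 33.4). The value of the non-clustered baits rested largely on Pcdh1, which kept 26 of its 35 pairs in EpiSCs and 25 in Nanog-/- ESCs, while Pcdh12 kept 8 and 5 of 16 and Pcdh8 4 and 2 of 8.

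Factors known to act on the clustered arrays were read from a list of 31 genes, of which 21 had a value. In EpiSCs 7 were past 2-fold higher and 3 lower, where 30.1% of all genes were higher and 5.78% lower. Relative to the EpiSC shift of 0.85, Tet3 (difference 2.96) alone stayed past 2-fold higher, the next being Stag2 (1.78). Rest (-0.61) and Trim28 (-0.23) then joined the lower genes, beside 9.86% of all genes higher and 14.6% lower. In Nanog-/- ESCs 2 were higher and 0 lower, where 1.69% of all genes were higher and 1.35% lower. The largest difference was that of Dnmt3l, a cofactor of de novo DNA methylation, at 183 RPKM in WT ESCs, against 0.822 in EpiSCs and 392 in Nanog-/- ESCs. Tet3, a dioxygenase that oxidises methylcytosine, had 1.39, 17.7 and 2.94 RPKM in the same order, whereas Tet2 had 24.7, 7.81 and 16.1 RPKM and Tet1 had 100, 33.9 and 119 RPKM. The cohesin subunit Stag2 had 32.2, 113 and 45.0 RPKM, and the H3K9 methyltransferase Suv39h1 had 15.7, 45.2 and 22.8 RPKM. Dnmt3a, the de novo methyltransferase, was past 2-fold in both comparisons, with 21.1, 44.3 and 61.6 RPKM. Ctcf had 79.1, 127 and 91.1 RPKM and was not past 2-fold in either. The median difference of the 21 genes in EpiSCs, 0.58, lay between that of all genes, 0.46, and that of genes with at least 1 RPKM in both states, 0.85.

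Other cadherins gave a mixed picture. Of 37 with a value, 12 were past 2-fold higher and 1 lower in EpiSCs (30.1% and 5.78% of all genes), and 0 were higher and 3 lower in Nanog-/- ESCs (1.69% and 1.35% of all genes). Relative to the EpiSC shift of 0.85, Fat1 (difference 1.48), Clstn1 (1.67) and Clstn2 (1.64) fell short of 2-fold higher. Genes such as Fat2 (-0.96) and Cdh1 (-0.33) became past 2-fold lower (9.86% higher and 14.6% lower over all genes). N-cadherin, Cdh2, had 3.10 RPKM in WT ESCs, compared with 78.0 in EpiSCs and 5.09 in Nanog-/- ESCs. The large cadherin Dchs1 had 0.235, 9.80 and 0.611 RPKM, the planar polarity cadherin Celsr2 had 2.44, 19.3 and 3.14 RPKM and Cdh4 had 0.397, 7.04 and 0.736 RPKM. E-cadherin, Cdh1, had 238, 188 and 115 RPKM, and Cdhr1 had 6.33, 8.64 and 0.544 RPKM. Both Cdh1 and Cdhr1 were past 2-fold lower in Nanog-/- ESCs, as was Cdh3 at 31.4 RPKM in WT ESCs and 14.9 in Nanog-/- ESCs.

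Proteins that bind protocadherin tails or act beneath them, the WAVE complex and several kinases among them, were represented by 14 genes with a value. In EpiSCs 7 were past 2-fold higher and 0 lower (30.1% and 5.78% of all genes), with a median difference of 1.00 in log2(RPKM + 1) beside 0.46 over all genes and 0.85 over genes with at least 1 RPKM in both states. Relative to the shift of 0.85, Marcks (difference 2.75), Dab1 (2.43) and Fyn (1.86) stayed past 2-fold higher. Cyfip2, Nckap1, Abi2 and Ptk2 did not, and Wasf3 (-0.20) became past 2-fold lower (9.86% higher and 14.6% lower over all genes). The largest EpiSC difference was that of Marcks, a substrate of protein kinase C, at 34.6 RPKM in WT ESCs, against 239 in EpiSCs and 42.8 in Nanog-/- ESCs. The adaptor Dab1 had 3.04, 20.8 and 4.04 RPKM. The kinase Fyn had 13.4, 51.2 and 10.9 RPKM. In Nanog-/- ESCs only Nckap1l was past 2-fold higher (1.69% of all genes), at 1.56 RPKM in WT ESCs and 6.34 in Nanog-/- ESCs.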

How the data were processed

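Per the labels and the study's methods, the authors made each PCHi-C list with HiCUP and CHiCAGO from 2 biological replicates normalised and combined. The submitters' processing notes name Bowtie 1.1.0, Trim Galore, TopHat and DESeq2, and GRCm38. The deposited lists give the count of read pairs and the CHiCAGO score of each pair. The deposited RNA-seq table gives the authors' median RPKM per state, on 15648 genes, and 15646 genes had values. Its column named BT12 was taken as Nanog-/- ESC, since the labels do not use that name. Columns with the authors' log2 fold changes, and others with what read as significance values, were not used.

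Entries listed from both ends were merged into 1 pair with the higher score. A list name such as Pcdha11 is the deposited one. Distances are between fragment midpoints. Array spans came from GENCODE M21, and all 232 fragments of protocadherin pairs had HindIII ends on GRCm38. A gene was called at a difference of 1 in log2(RPKM + 1), an understatement for low genes. No test was made, since the values used give 1 number per state, and leaving out replicates was not possible. Scripts were tested on simulated data (Python 3.11.15, numpy 2.4.6, pandas 2.3.3, scipy 1.17.1, matplotlib 3.10.9).

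Members and gene lists were chosen with earlier results of these data known. Values are printed for members at 1 RPKM or more in a state or past 2-fold and for the highest and lowest non-clustered members, pairs for the 5 baits with most pairs, the 5 highest scores within and between arrays and every pair over 800 kb. For the other gene lists, the members printed are a selection. Partner fragments, array neighbours and other named values were chosen after they were seen. Markers for naive, primed and general pluripotency, neural, primitive endoderm, trophoblast, mesoderm and fibroblast cells were used. Not every marker value is reported here.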

Additional observations from a re-analysis of the deposited data

How the results depend on the processing

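Of 105 alternatives, 62 stayed near the main value and 43 moved, that is, a count differed by more than 1.5-fold or a share left the interval of the main share. A pseudocount of 0.1 gave 27 protocadherin genes past 2-fold higher in EpiSCs and 7 in Nanog-/- ESCs, and a 1.5-fold rule gave 3 in Nanog-/- ESCs. Stricter thresholds list fewer pairs by construction, and values here follow the order WT ESC, EpiSC, Nanog-/- ESC. At a CHiCAGO score of 7 or more, pairs with a protocadherin bait numbered 165, 127 and 54, pairs within arrays 52, 24 and 9, pairs between arrays 68, 20 and 18, pairs to outside 27, 53 and 6, and contacts of Pcdhb baits downstream of Pcdhg 4, 29 and 0. At 10 reads or more, the same counts were 182, 95 and 45 with a protocadherin bait, 84, 30 and 17 within (the first of these near the main value), 52, 6 and 3 between, 26, 27 and 3 to outside, and 1, 4 and 0 downstream. The EpiSC excess of outside pairs was thus kept at the higher score but came down to 27 against 26 at 10 reads or more, and the cause was not tested. With 10 reads or more, the share of WT ESC pairs kept was 30.2% in EpiSCs and 17.0% in Nanog-/- ESCs. With 50 kb added to each side of the arrays, EpiSC pairs between arrays rose to 139 and outside pairs fell to 11, 6 and 3, since most sequence counted as outside then lay within the spans. With spans drawn from the baited fragments alone, pairs between arrays were 33, 12 and 9, and outside pairs were 185, 141 and 53, so that WT ESCs had more than EpiSCs. The wider spans also reversed the order of the outside counts of WT ESCs and EpiSCs, from 63 and 94 to 11 and 6, so the EpiSC excess rested on sequence within 50 kb of an array and depended on how the spans were drawn. With lists cut to the same number of pairs no value moved by that rule, although WT ESC pairs with a protocadherin bait went from 354 to 276 and the share kept in Nanog-/- ESCs from 27.4% to 32.2%. That alternative and all those on downstream contacts were chosen after seeing the data. No paired analysis was possible because the values used, from the table and the lists, are 1 combined number per state, and no replicate could be left out for the same reason.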

Other observations

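The bait named Gm10545, which lies at Pcdha12 and bears no protocadherin name, had 35 pairs in WT ESCs, then 16 in the EpiSC list and 12 in that of Nanog-/- ESCs. Its RPKM was 0.0382, 0.455 and 0.0282 in that order. Its strongest contacts outside the arrays lay in the interval between Pcdha and Pcdhb in all 3 lists, 1 of them, chr18:37219728-37223289 at 199 kb, with scores of 19.12, 17.94 and 7.72.

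The Taf7 bait had 12 pairs in WT ESCs, then 26 in the EpiSC list and 7 in that of Nanog-/- ESCs, and the Fchsd1 bait had 19, 14 and 14.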
